A study of Brassica napus with 16 samples.

Results

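Along chromosomes A01 and C01 of Brassica napus (oilseed rape), 2 stretches of neighbouring genes had low transcript levels in the cultivar 2063A and higher levels in the cultivar B409. The A01 stretch runs from BnaA01g33150D to BnaA01g34090D and the C01 stretch from BnaC01g38640D to BnaC01g39460D, in the order of identifier numbers. Genes with an FPKM (mapped fragments of a gene, scaled to its transcript length and to the size of the library) of 1 or more in at least 2 of the 16 libraries were kept, which left 98 members of 54206 such genes in the whole table. The A01 stretch holds 95 identifiers, of which 45 are members, and the C01 stretch holds 83, of which 53 are members. The stretches were selected on the measured FPKM difference between the cultivars, so every value of that difference is given as a description and without a test.

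B. napus arose from a cross of B. rapa, which gave the A subgenome, and B. oleracea, which gave the C subgenome. A01 and C01 are counterparts that carry many genes in similar order, so that a gene is often present as an A copy and a C copy (homeologs). Exchanges and losses of homeologous segments are known in this species, and cultivars can differ in which segments they carry.

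Expression was measured by RNA-seq in 2063A and B409, each in young leaf, flower bud, silique and root, with 2 replicates in each of 8 groups. The labels give the cultivars by name alone, with no pedigree, treatment or introduced allele. Roots were sampled 7 d after planting on wet filter paper and young leaves from hydroponic seedlings of 2 weeks, both from a growth chamber, whereas flower buds of at most 2 mm and siliques of 3 to 5 cm came from the field. Tissue, age and growing place can therefore not be told apart. The tissues are called leaf, bud, silique and root from here on. Nothing in the labels says that replicates came from separate plants, so p-values measure no more than the spread between libraries, and that may be technical. The summed FPKM of a library lay between 519039 and 617686, and the read depth is unknown.

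The identifiers carry no gene names. In the RefSeq gene table of the assembly Da-Ae, 3347 of the 101040 identifiers occur as symbols, and only 3 of these lie in the stretches: the member BnaA01g33590D, and BnaA01g33390D and BnaA01g33820D, which did not reach the FPKM minimum. All 3 are listed as protein coding with no function given, and BnaA01g33820D is placed on the C counterpart chromosome in that assembly. No role is therefore stated for any member, and the tissues could not be checked against marker genes. Across A01, 92 of 98 neighbouring pairs of symbols found on the matching Da-Ae chromosome followed the identifier order, and across C01 127 of 133 did.

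Nearly all of the A01 stretch was low in 2063A. All 45 members had a lower mean in 2063A than in B409, and the median of the members' differences, averaged over the tissues, was -2.01 on the log2(FPKM + 1) scale, against 0.04 for all tested genes. The difference reached 2-fold on that scale for 35 of 45 members (3.72% of all tested genes), and in each of the 4 tissues for 24 (1.39% of all tested genes). All 8 libraries of 2063A lay below all 8 of B409 for 28 members (1.81% of all tested genes). No A01 member was 2-fold or more higher in 2063A. These counts describe members selected for this difference. On B409 libraries alone, 22 members passed the FPKM minimum, and among such genes the filter itself favours a difference in this direction.

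The C01 stretch was split. Its median difference was -0.94, with 26 of 53 members at least 2-fold lower in 2063A and 23 with all libraries of 2063A below all of B409, while 2 members were at least 2-fold higher (3.8% of all tested genes). The first 27 members, from BnaC01g38640D to BnaC01g39070D, all had a lower mean in 2063A (median -1.57), and so had the last 11, from BnaC01g39280D to BnaC01g39460D (median -1.81). Between them lay 15 members, from BnaC01g39090D to BnaC01g39260D, with a median of 0.41. None of these 15 was 2-fold lower, and only 3 had a negative mean difference. The description of the C01 stretch as lower in 2063A thus held for 38 members in 2 runs and not for the 15 in the inner run. The runs were delimited after the values were seen. In C01, 28 members passed the FPKM minimum on B409 libraries alone and 1 on 2063A libraries alone.

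By tissue, the members at least 2-fold lower in 2063A numbered 34 on A01 and 26 on C01 in leaf (5.19% of all tested genes), and 36 and 26 in bud (5.62%). In silique they numbered 31 and 30 (4.87% of all tested genes), and in root 33 and 24 (5.55%). Members at least 2-fold higher in 2063A occurred on C01 alone, with 2 in leaf (4.69% of all tested genes), 4 in bud (6.99%), 1 in silique (4.54%) and 3 in root (5.51%). The median difference of the A01 members was largest in root, at -2.40, and smallest in silique, at -1.60. On C01 it was largest in silique, at -1.20, and smallest in root, at -0.67.

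**Figure D1:**
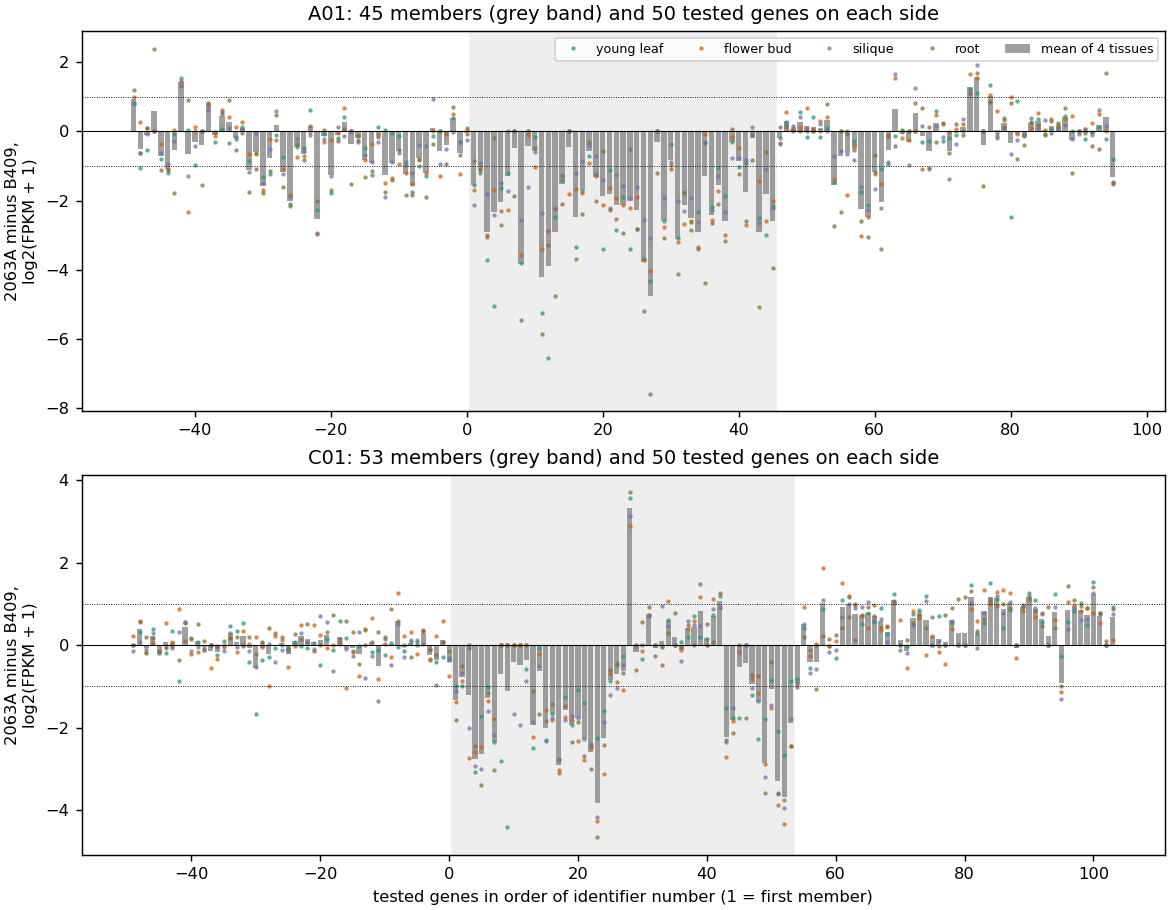
Difference between 2063A and B409 per gene (vertical axis, log2(FPKM + 1), grey bars for the mean of 4 tissues, dots for single tissues) in identifier order (horizontal axis, counted in tested genes) for the members (grey band) and 50 tested genes on each side; dotted lines mark 2-fold. All 45 bars of A01 point down, whereas the C01 band holds 15 members between 2 runs of negative bars, with BnaC01g39090D at 3.32.

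At each end of the stretches the 2 members inside were lower than the 2 tested genes outside, but on A01 lower genes recurred close by. On C01 the last genes before the start, BnaC01g38620D and BnaC01g38630D, differed by 0.12 and -0.40 on the log2(FPKM + 1) scale, and the first members, BnaC01g38640D and BnaC01g38650D, by -1.32 and -0.76. The last members, BnaC01g39450D and BnaC01g39460D, differed by -3.67 and -1.89, and the genes after them, BnaC01g39470D and BnaC01g39480D, by -0.92 and 0.51. On A01 the genes before the start, BnaA01g33130D and BnaA01g33140D, differed by -0.63 and -0.05, and the members BnaA01g33150D and BnaA01g33220D by -1.56 and -1.08. At the A01 end, BnaA01g34070D and BnaA01g34090D differed by -1.82 and -2.58, and BnaA01g34130D and BnaA01g34170D, outside, by -0.20 and 0.29.

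The flanks were not alike. The 50 tested genes before the A01 stretch had a median of -0.48. At least 2-fold lower in 2063A were 11 of them, and 1 was at least 2-fold higher, so lower genes also occurred upstream of the rule's start. Among the lower ones, BnaA01g33010D (-1.59) and BnaA01g33030D (-1.21) lay close to the start. The 50 tested genes after the A01 end had a median of -0.01, with 6 at least 2-fold lower and 3 at least 2-fold higher. Several of the lower ones lay close together: BnaA01g34330D (-1.57), BnaA01g34400D (-2.25), BnaA01g34410D (-2.49), BnaA01g34430D (-1.19) and BnaA01g34460D (-2.05). The 50 genes before the C01 stretch had a median of 0.01 and none was 2-fold different. After the C01 stretch the direction was opposite: 42 of the next 50 genes had a difference of 0 or above, the median was 0.69, and 9 were at least 2-fold higher in 2063A. The median was 0.33 for the 50 genes after those and 0.06 for the following 50. The second set of 50 genes before the A01 stretch also had a positive median, of 0.38.

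BnaA01g33660D had the highest level in B409 and the largest difference of the A01 stretch. In B409 its FPKM was 23.9 and 18.2 in leaf, 129 and 152 in bud, 119 and 105 in silique, and 283 and 291 in root. In 2063A it was listed at 0 and at 0.194 in leaf, and it stood at 8.10 and 7.12 in bud, 12.0 and 12.6 in silique, and 0.561 and 0.454 in root. The cultivars did not overlap in any tissue, and the log2(FPKM + 1) difference was -4.75 averaged over the tissues and -7.58 in root. In B409 root was the highest tissue of this gene, while in 2063A silique was.

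BnaA01g33400D followed, with a mean difference of -4.21. In B409 it was at 72.9 and 23.9 in leaf, 132 and 132 in bud, 79.6 and 76.5 in silique, and 100.1 and 97.2 in root. In 2063A it was at 0 and 0.289 in leaf, 13.6 and 9.93 in bud, 13.0 and 16.1 in silique, and 0.784 and 0.658 in root. Together BnaA01g33660D and BnaA01g33400D made up 35.1% of the summed FPKM of the A01 members in B409.

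In leaf the largest difference among the A01 members was that of BnaA01g33410D, from 107 and 88.9 in B409 to 0 and 0.0927 in 2063A (difference -6.56). In silique the same gene was at 37.7 and 38.5 in B409 and at 4.24 and 4.29 in 2063A. All libraries of 2063A again lay below those of B409.

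A few A01 members, picked after their values were seen, kept a clear level in 2063A. BnaA01g33970D was at 3.97 to 6.49 in 2063A and at 4.82 to 9.12 in B409, with overlapping ranges and a difference of -0.30. BnaA01g33220D was at 6.92 to 19.2 in 2063A and at 17.5 to 40.7 in B409, and in every tissue the libraries of 2063A were the lower ones. These were the 2 members of A01 to reach an FPKM of 1 in each of the 16 libraries. BnaA01g34050D had the smallest difference of the A01 members, -0.21, at 0.825 to 13.8 in 2063A and 0.690 to 12.1 in B409. In silique its difference was 0.13, with 2063A the higher cultivar.

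**Figure D2:**
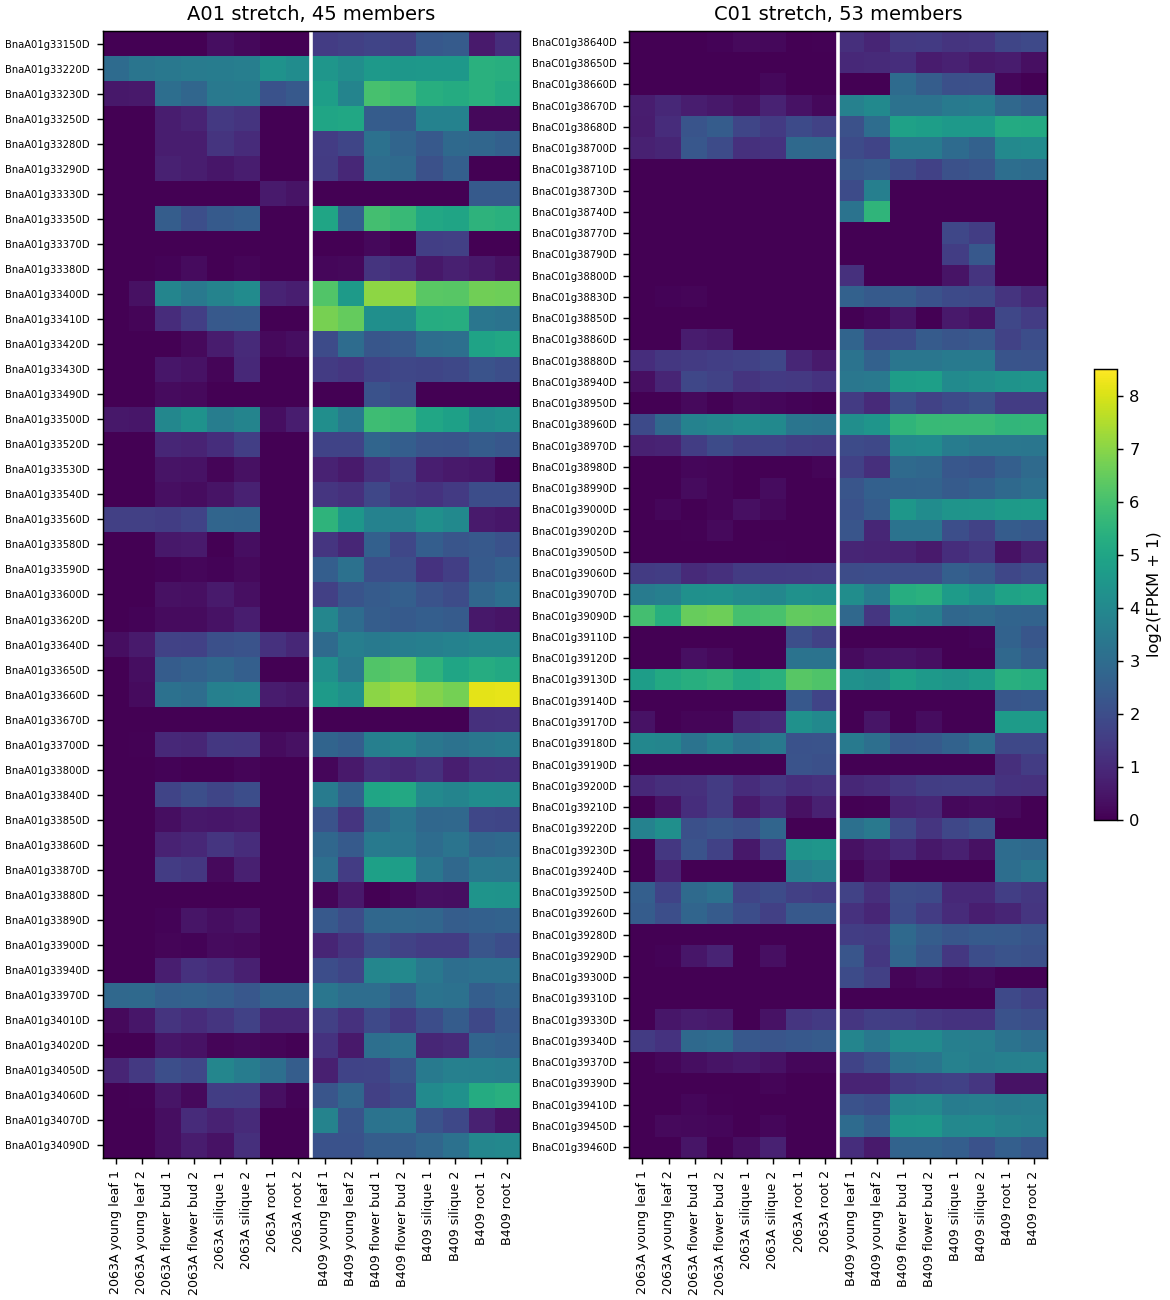
Level of every member (rows, in identifier order) in every library (columns, 2063A left and B409 right of the white line) as log2(FPKM + 1), from 0 in dark to 8.5 in yellow. In the A01 panel, 2063A is dark in leaf and root and lighter in bud and silique.

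The level that was left in 2063A differed between tissues on A01. Summed over the 45 members, FPKM was 17.5 and 22.0 in leaf of 2063A, 90.7 and 92.8 in bud, 119 and 126 in silique, and 40.6 and 35.6 in root. In B409 the sums were 513 and 340 in leaf, 786 and 792 in bud, 607 and 568 in silique, and 813 and 814 in root. The leaf replicates of B409 lay further apart than those of any other tissue, and still far above 2063A. The mean of 2063A was thus 4.62% of that of B409 in leaf and 4.69% in root, but 11.6% in bud and 20.8% in silique. Without BnaA01g33660D and BnaA01g33400D these shares were 5.45% in leaf, 8.62% in root, 14.0% in bud and 24.0% in silique.

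The same order appeared when members were counted. An FPKM of 1 or more was reached by 3 and 4 of the 45 members in the leaf libraries of 2063A, by 5 and 4 in root, by 15 and 17 in bud and by 21 and 23 in silique. In B409 between 34 and 41 members reached it in every library. Among members with a mean FPKM of at least 5 in B409 in the tissue in question, the median level of 2063A was 0.34% of B409 in leaf (18 members), 0.09% in root (24 members), 8.35% in bud (23 members) and 15.7% in silique (24 members). A level under 5% of B409 was found for 15 of the 18 in leaf and 19 of the 24 in root, but for 3 of 23 in bud and 0 of 24 in silique. Of the 13 members with a mean FPKM of at least 5 in B409 in all 4 tissues, 11 kept a larger share in both bud and silique than in either leaf or root. In the first run of C01 the same median was 10.9% in leaf (8 members), 9.02% in bud (13 members), 21.9% in silique (9 members) and 7.01% in root (11 members). These medians rest on other members in each tissue. For the 13 members of A01 present in all 4, they were 0.46% in leaf, 8.91% in bud, 18.6% in silique and 0.73% in root. For the 5 such members of the C01 first run they were 16.0%, 15.1%, 9.60% and 7.45%, and 2 of the 5 kept larger shares in both bud and silique. For the other tested genes at least 2-fold lower in 2063A on average, the median was again taken over different genes in each tissue. With the same minimum of 5 in B409, it was 15.6% in leaf (891 genes) and 27.0% in bud (1148). In silique it was 27.3% (1155 genes) and in root 20.0% (1025).

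All 4 bud and silique libraries of 2063A lay above all 4 leaf and root libraries of 2063A for 29 of the 45 A01 members, against 17.9% of all tested genes. Some of the 29 stayed below an FPKM of 1 in every library of 2063A, where the order rests on very low values. BnaA01g33590D, for example, was at 0.0612 to 0.161 in bud and silique and listed at 0 in leaf and root. In B409 the same order held for 5 of 45, against 16.2% of all tested genes. On C01 it held for 4 of 53 members in 2063A and for 6 of 53 in B409. The pattern was noticed in these libraries and was not tested. Bud and silique are also the field samples.

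**Figure D3:**
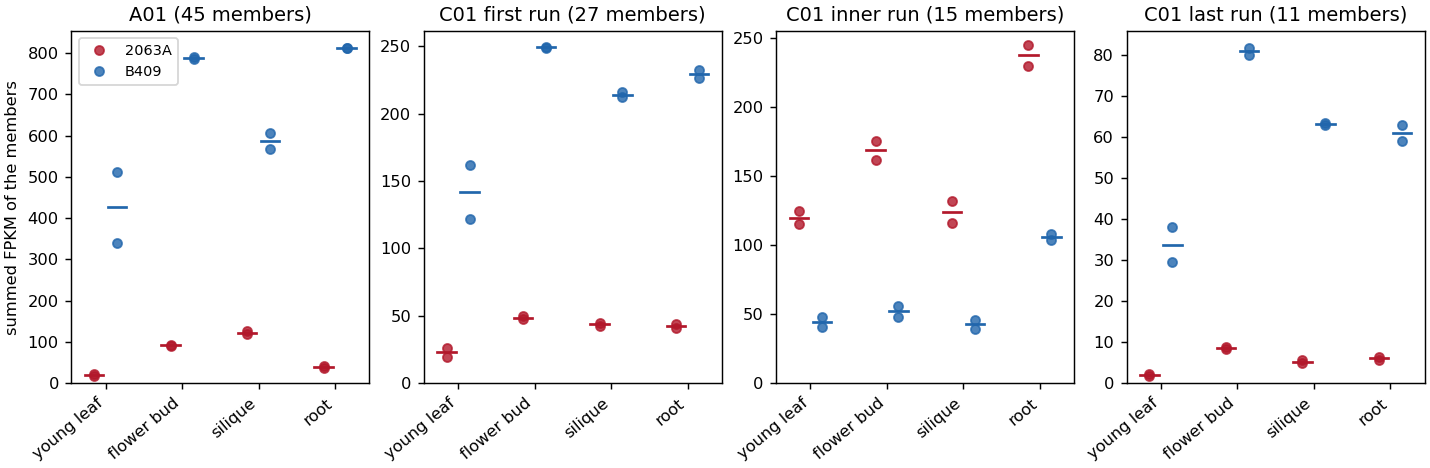
Summed FPKM of the members (vertical axis, from 0, a scale for each panel) in single libraries (points) with group means (lines, n = 2) by tissue for the A01 stretch and the 3 runs of C01. The libraries of 2063A lie below those of B409 in every tissue on A01 and in the first and last runs of C01, and above them in the inner run.

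On C01 the outer runs were low in every tissue of 2063A. The 27 members of the first run summed to 22.7 ± 4.83 (SD, n = 2) in leaf of 2063A, against 142 ± 28.3 in B409, and to 48.5 ± 1.83 against 249 ± 0.59 in bud. The sums were 43.4 ± 1.22 against 214 ± 2.18 in silique and 42.0 ± 2.00 against 230 ± 4.16 in root. The cultivars did not overlap in any tissue. This left 2063A at 16.0% of B409 in leaf, 19.5% in bud, 20.3% in silique and 18.3% in root. Much of the 2063A sums came from BnaC01g38960D and BnaC01g39070D, and the other members of the run had a lower share in every tissue. Their 2063A means, for these 2 genes, were 4.53 and 11.1 in leaf, 13.3 and 18.4 in bud. In silique they were 15.7 and 15.3, and in root 8.58 and 18.4. The 11 members of the last run stood at 5.84% of B409 in leaf, 10.6% in bud, 8.21% in silique and 9.77% in root.

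BnaC01g39000D had the largest mean difference on C01 (-3.83 on the log2(FPKM + 1) scale). In B409 its FPKM was 3.42 and 4.51 in leaf, 21.8 and 16.5 in bud, 20.0 and 20.7 in silique, and 23.7 and 24.6 in root. In 2063A it did not exceed 0.26 in any library and was listed at 0 in both root libraries. BnaC01g39450D, in the last run, was at 6.79 and 4.88 in leaf of B409, 21.5 and 22.1 in bud, 14.8 and 15.4 in silique, and 12.8 and 11.9 in root, and did not exceed 0.154 in 2063A. Both genes were thus close to 0 in bud and silique of 2063A too.

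The 2 members of C01 with the highest level in B409, BnaC01g38960D and BnaC01g39070D, kept a part of it in 2063A. BnaC01g38960D was at 17.4 and 20.6 in leaf of B409, 45.8 and 52.2 in bud, 53.3 and 53.2 in silique, and 47.3 and 48.0 in root. In 2063A it was at 2.78 and 6.29, 12.7 and 13.9, 16.1 and 15.3, and 8.78 and 8.39 in the same tissues, below B409 in each. BnaC01g39070D, the last member of the first run, ranged from 10.6 to 18.8 in 2063A and from 10.7 to 41.1 in B409, and its libraries overlapped in leaf. Of the 38 members in the outer runs, 28 did not reach an FPKM of 1 in any library of 2063A, and 11 of these were listed at 0 in all 8. On A01 these numbers were 20 and 3 of 45. Over all tested genes the shares were 4.21% and 0.731%.

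In the inner run of C01, BnaC01g39090D stood out. Its FPKM in 2063A was 61.7 and 39.6 in leaf, 91.8 and 98.3 in bud, 63.1 and 65.3 in silique, and 87.8 and 82.3 in root. In B409 it was at 6.36 and 1.51, 12.6 and 11.4, 6.12 and 6.74, and 5.73 and 5.54 in the same tissues. All 8 libraries of 2063A lay above all 8 of B409 (2.12% of all tested genes), with a mean difference of 3.32 on the log2(FPKM + 1) scale, or 9.96-fold. BnaC01g39260D, at the end of the inner run, was at 2.05 to 5.85 in 2063A and 0.636 to 2.80 in B409, and differed by 1.07. The 15 members of the inner run summed to 120 ± 7.00 in leaf of 2063A (SD, n = 2) and to 44.3 ± 5.06 in B409, and to 238 ± 10.3 and 106 ± 3.13 in root. The sum of 2063A was 271% of that of B409 in leaf, 324% in bud, 293% in silique and 224% in root. Without BnaC01g39090D these shares were 172%, 184%, 167% and 152%, so that this gene carried a large part of the difference.

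**Figure D4:**
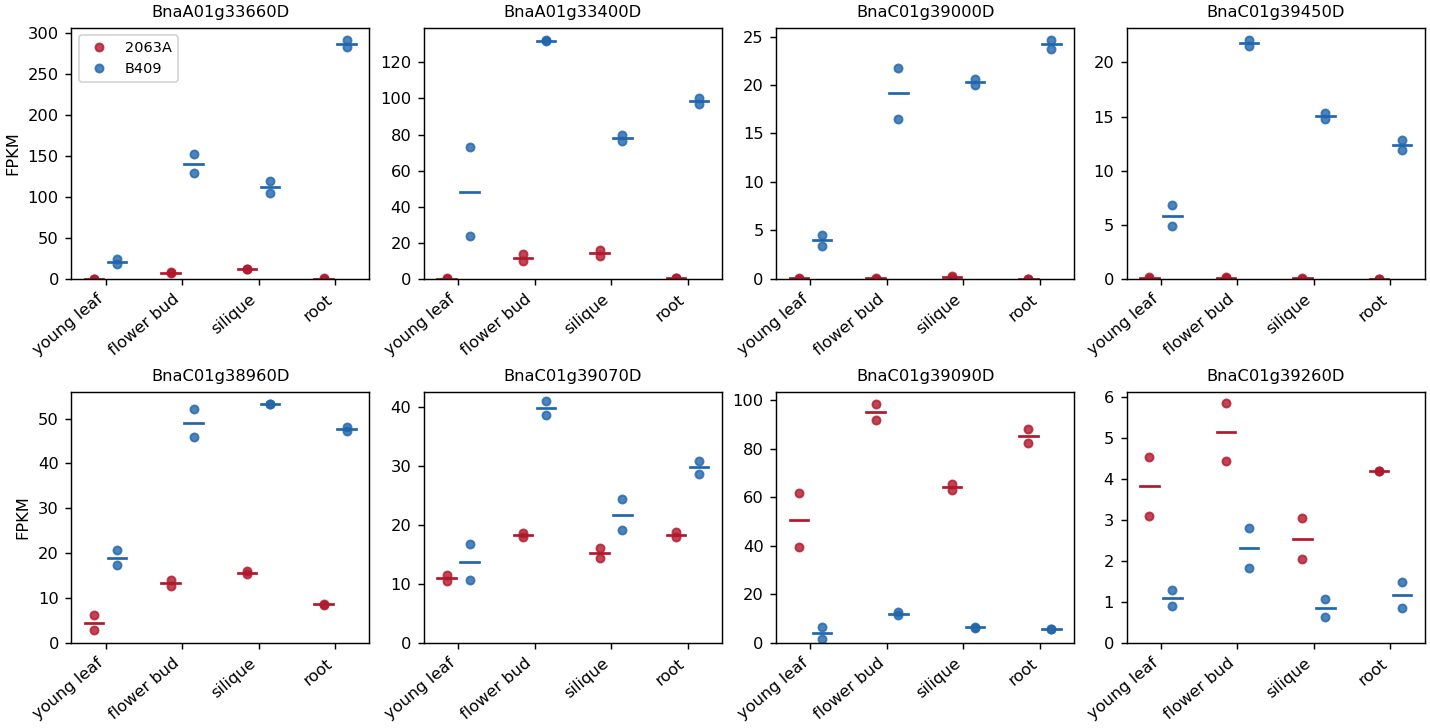
FPKM (vertical axes, from 0, a scale for each panel) of 8 members in single libraries (points) with group means (lines, n = 2) by tissue, 2063A in red and B409 in blue. BnaC01g39090D and BnaC01g39260D are higher in 2063A, and the other panels show members with a lower mean in 2063A in every tissue.

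The tissue pattern within B409 was tested with a limit set by the FPKM minimum, which uses the same libraries: 17 of the 98 members would miss the minimum without 1 tissue of B409. A high level of such a member in that tissue follows in part from the filter, so it is given as values only. Each tissue was compared with the mean of the other 3 within B409, and calls required a change of at least 2-fold and an adjusted p under 0.05 (limma, Benjamini-Hochberg over all 54206 tested genes). A call against this mean does not require a gene to exceed, or lie below, every one of the other 3. In these bulk samples fewer cells of a type and less RNA per cell cannot be told apart. Of the 98 members, 61 were called in at least 1 tissue, 29 of 45 on A01 and 32 of 53 on C01, against 58.9% of all tested genes. Among the 81 members that pass without any single tissue of B409, 49 were called, against 58.7% of such genes in the whole table. Both shares were near the background.

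In leaf of B409, 9 members were higher (10.6% of all tested genes) and 31 lower (22.6% of all tested genes). The 31 made up 31.6% of the members. Of the 9 higher members, 6 were left without those that need leaf of B409 to pass the FPKM minimum. That was 6 of 93 members, against 10.3% of the tested genes that pass without leaf of B409. Members that need leaf are high there, so this count says nothing about the 31 lower calls. The lower calls include BnaA01g33880D, a member through root of B409 alone. The median change of the members was -0.61 and that of all tested genes -0.50. With quantile normalization 13 members were higher and 17 lower, and the median of all tested genes was -0.17. BnaC01g38740D, which was listed at 0 in the other 14 libraries, was at 8.48 and 46.3 in leaf of B409. Its replicates lay far apart, and it is a member through these libraries alone. BnaA01g33250D was at 30.8 and 32.8 in leaf, 4.60 and 4.31 in bud, 12.6 and 12.5 in silique and 0.131 and 0.141 in root of B409 (log2 change 2.90, SE 0.10, limma adjusted p = 6.7e-10). BnaA01g33660D (-2.92, SE 0.12, limma adjusted p = 4.0e-09) and BnaC01g38680D (-2.28, SE 0.21, limma adjusted p = 2.1e-06) fell most in leaf.

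In root of B409, 19 members were higher (19.2% of all tested genes) and 12 lower (15.4% of all tested genes), which made up 19.4% and 12.2% of the members. Without the members that need root of B409 to pass the FPKM minimum, 14 of the 19 higher were left. That was 14 of 93 members, against 18.3% of the tested genes that pass without root of B409. Those 14 still hold members that pass through root of both cultivars. This count says nothing about the 12 lower calls, which include BnaC01g38740D, a member through leaf of B409 alone. BnaC01g39170D was at 24.3 and 24.1 in root and at most 0.41 elsewhere in B409 (log2 change 4.53). Outside root it reached an FPKM of 1 in 1 library alone, of 2063A silique, so its call follows in part from the filter. BnaA01g33880D was at 20.2 and 19.5 in root and did not exceed 0.482 elsewhere in B409, was listed at 0 in all 8 libraries of 2063A, and is a member through root of B409 alone. BnaA01g33560D was at 0.526 and 0.425 in root and at 12.6 to 45.6 elsewhere in B409 (-3.76, SE 0.20, limma adjusted p = 8.9e-09). BnaA01g33250D also fell in root (-3.56, SE 0.10, limma adjusted p = 2.0e-11). In the inner run of C01, 7 of 15 members were called higher in root. The counts were 3 of 27 in the first run, 1 of 11 in the last run and 8 of 45 on A01. The inner run was delimited after the values were seen, and the difference between these shares was not tested. Of the 7, BnaC01g39110D, BnaC01g39120D, BnaC01g39140D, BnaC01g39190D and BnaC01g39240D reached an FPKM of 1 in root libraries alone, in both cultivars. They pass the FPKM minimum through the tissue of the call, as does BnaC01g39170D, so these calls follow in part from the filter. Of the 7, BnaC01g39230D alone passes without root. The 7 changes ranged from 1.33 to 4.53 on the log2(FPKM + 1) scale, and the inner run's median was 0.82 in root, against 0.01 for all tested genes.

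In bud of B409, 15 members were higher (15.7% of all tested genes) and 6 lower (11.7% of all tested genes), and 11 and 8 with quantile normalization. Without the members that need bud of B409 to pass the FPKM minimum, 14 of the 15 higher were left. That was 14 of 94 members, against 15.1% of the tested genes that pass without bud of B409. The one lost was BnaA01g33490D, at 3.41 and 2.82 in bud and listed at 0 in the other libraries of B409. BnaC01g38660D was at 6.76 and 4.65 in bud, 3.19 and 3.34 in silique and at most 0.101 elsewhere in B409 (log2 change 2.01, SE 0.11, limma adjusted p = 3.1e-08). The largest fall among the members was that of BnaA01g34060D (-2.24, SE 0.16, limma adjusted p = 3.4e-07), at 2.06 and 2.80 in bud and 36.6 and 39.8 in root. BnaA01g33880D was also called lower in bud, a call set by its root level, which enters the mean of the other tissues. BnaC01g38740D was called lower in bud as well, through its leaf level.

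In silique of B409, 9 members were higher (10.3% of all tested genes) and 7 lower (5.91% of all tested genes), and 6 and 9 with quantile normalization. Without the members that need silique of B409 to pass the FPKM minimum, 6 of the 9 higher were left. That was 6 of 93 members, against 9.89% of the tested genes that pass without silique of B409. This count says nothing about the 7 lower calls. These include BnaA01g33880D, a member through root of B409 alone, and BnaC01g38740D, a member through leaf of B409 alone. BnaC01g38790D, at 1.93 and 4.04, and BnaC01g38770D, at 2.50 and 1.93, are among the 3 left out, and both were listed at 0 in the other 14 libraries. The largest fall among the members was that of BnaC01g39170D (log2 change -1.68). It was set by the root level of this gene, through which the gene passes the FPKM minimum. BnaC01g38740D, high in leaf, was also called lower in silique, and without silique replicate 1 or 2 of B409 it was not called.

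**Figure D5:**
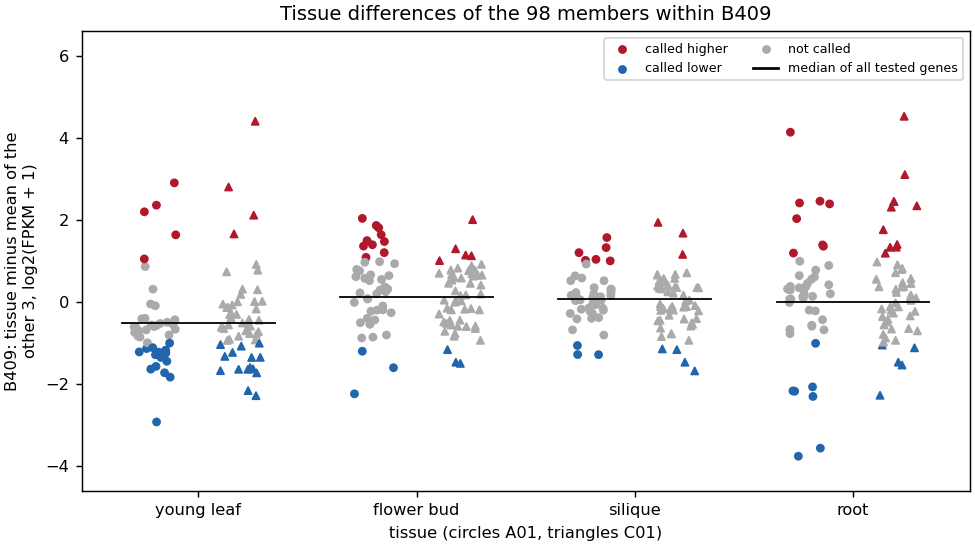
Log2 change of each member in a tissue against the mean of the other 3 within B409 (vertical axis, log2(FPKM + 1)), by tissue, with A01 members as circles and C01 members as triangles; red and blue points were called higher and lower, and black lines give the median of all tested genes. In leaf 31 members were called lower and 9 higher, and in root 19 higher and 12 lower.

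The genes of the stretches that did not reach the FPKM minimum were also accounted for. On A01 they numbered 50, of which 30 were listed at 0 in all 16 libraries, and the highest value was 1.38, for BnaA01g33390D in leaf of B409. On C01 they numbered 30, of which 19 were listed at 0 throughout, and the highest value was 1.09, for BnaC01g38690D in bud of B409. Just inside the minimum, with 2 libraries at an FPKM of 1 or more, were 7 members on A01 and 11 on C01, and the highest values of these 18 ranged from 1.18 to 46.3.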

How the data were processed

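RNA-seq of 16 libraries was analysed from 1 file per library, in which the authors deposited 1 FPKM value per gene, per the file headers. Trimmomatic, TopHat2 and Cufflinks 2.1.1 are named in the submitters' processing notes, without roles or settings. Not given in the sources used here were the genome build, the annotation and the handling of reads shared by homeologs. Values of near-identical copies are therefore uncertain. FPKM values are not counts, so no count model, counting interval or floor was used, and an exact 0 can be a failed estimate.

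Groups and replicate numbers came from the sample titles. Values were transformed to log2(FPKM + 1), which understates the change of low genes. Tissue contrasts within B409 were fitted with limma 3.58.1 in R 4.3.3, with 1 mean per group over all 16 libraries, variances moderated along a mean trend, 8 residual and 3.35 prior degrees of freedom, and two-sided tests over 54206 genes. The fit was checked on simulated data. Descriptive values were computed with Python 3.11.15 and pandas 2.3.3. Stretches, members and gene choices were made with earlier results of these data known. As almost no identifier has a name, the named members are at most 2 that fell and 2 that rose in each comparison, the 2 highest in B409 and the 2 on each side of each end; others were chosen after their values were seen. Counts without members that pass the FPKM minimum through 1 tissue of B409, and the inner sum without BnaC01g39090D, were added after seeing the data. Alternatives were another pseudocount, no filter, other scalings, a replicate block, no trend, a contrast over both cultivars, other member filters and leaving out each library.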

Additional observations from a re-analysis of the deposited data

Results flagged for a closer look

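BnaC01g39170D, a member of the inner run of C01, differed between the cultivars in opposite directions in 2 tissues. In silique it was at 0.834 and 1.01 in 2063A and listed at 0 in both libraries of B409, a difference of 0.94 on the log2(FPKM + 1) scale. In root it was at 18.8 and 15.6 in 2063A and at 24.3 and 24.1 in B409, a difference of -0.48. The libraries of the cultivars did not overlap in either tissue. The silique side rests on values near the FPKM minimum, and a listed 0 can be a failed estimate. The difference between the tissues was not tested.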

How the results depend on the processing

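The median difference of the A01 members, -2.01, was -3.76 with a pseudocount of 0.1, -2.09 after quantile normalization, -1.95 when 1 library at an FPKM of 1 sufficed (46 genes) and -2.14 when 4 were required (38 genes). That of the C01 members, -0.94, was -2.06, -1.04, -0.84 (55 genes) and -1.35 (42 genes) under the same settings. Leaving out 1 library at a time gave -2.03 to -1.90 on A01 and -1.01 to -0.85 on C01. The numbers of members 2-fold lower stayed within 1.5 times under every alternative. Among the tissue calls within B409, a pseudocount of 0.1 gave 50 members lower in leaf, 16 in bud, 16 in silique and 21 in root. Quantile normalization gave 17 lower in leaf. The leaf median of all tested genes moved as well, from -0.50 to -0.76 with the pseudocount and to -0.17 with quantile normalization. Shares of all tested genes called under the alternatives are not given here, so these counts are no result about the members. Averaging the contrast over both cultivars gave 5 higher and 17 lower in leaf, 3 lower in bud, 4 lower in silique and 12 higher in root. It also took 5 named members under 2-fold. The cause was not tested. No median and no named change altered its sign under the alternatives run, but the silique balance turned, from 9 higher and 7 lower to 6 and 9 after quantile normalization and to 13 and 16 with a pseudocount of 0.1. With replicate number as a block, 9 members were higher and 31 lower in leaf, 15 and 6 in bud, 9 and 7 in silique, and 19 and 12 in root, the counts without it. Deviations of same-numbered libraries correlated above 0.1 for 1 of 28 pairs of groups (r = 0.33, leaf of both cultivars). Same-numbered leaf libraries thus deviated together, while no other pair of groups exceeded 0.1. The lowest correlations were -0.18, for bud of 2063A and leaf of B409, and -0.13, for leaf and bud of 2063A. The block fits 1 shift per gene for all tissues, so its unchanged counts do not bear on a shift in leaf alone, which was not tested. With 2 replicates and unknown depth, low values are imprecise.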
